A study of Homo sapiens with 6 samples.

Results

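The cassette exons of 10 genes whose splicing is known to differ between epithelial and mesenchymal cells were examined in RBM47-expressing breast cancer cells. The genes were CTNND1, ENAH, EXOC7, NUMB, SCRIB, MARK3, FGFR1, PTPRF, CTTN and MAGI1, and all rows of the splicing table that carried one of these symbols were taken. This gave 52 of the 24725 events of the table, in 9 of the 10 genes. EXOC7 had 10 events, MARK3 had 9, CTNND1 had 8, NUMB and MAGI1 had 7 each, PTPRF had 4, SCRIB and FGFR1 had 3 each, ENAH had 1 and CTTN, which encodes the actin-binding protein cortactin, had 0.

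RNA-seq libraries were made in triplicate from MDA231-BrM2a cells, a brain metastatic derivative of the human breast cancer line MDA-MB-231. The 3 control samples were non-clonal cells with the empty vector pRetroX-Tight-Pur, and the 3 RBM47 samples were 1 clonal line that expressed Flag-tagged wild type RBM47, an RNA-binding protein, from a doxycycline-inducible promoter in that vector. Both groups received 10 ng/ml doxycycline for 3 days. RBM47 expression and clonal origin therefore cannot be told apart, and no row of the table carried the symbol RBM47, so that expression of the transgene was not checked here.

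In a cassette exon event the spliceosome either joins an exon to both of its neighbours or skips it. Epithelial and mesenchymal cells are known to make different choices at a common set of such exons, many of them short and in frame, in genes of cell adhesion, polarity, receptor signalling and the actin cytoskeleton. ESRP proteins favour the epithelial forms, and RBFOX2, QKI and other factors act on the same exons. MDA-MB-231 cells are known as a mesenchymal-like line. Each event was measured by its inclusion rate (IR) in each sample, as deposited. The change (ΔI) was the mean of the 3 RBM47 samples minus the mean of the 3 control samples. An IR from read totals was the fraction of including junction reads over including plus 2 times skipping reads. The deposited rates did not always follow this fraction, so the IR from totals can lie outside those of the samples. For CTNND1 event 5 the control totals gave 0.616, while the control samples gave 0.375, 0.432 and 0.414. Values are mean ± SD (n = 3) unless stated otherwise, and events are numbered within a gene by their position in the table. Because the RNA came from bulk cells, an IR cannot tell a change in all cells from a change in the share of cells that include an exon, and for read totals fewer cells of a type and less RNA per cell cannot be told apart.

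The exons behind the events were found by gene and outer span in the GENCODE annotation of GRCh37, because the build of the table was not stated. Of the 52 events, 45 matched annotated exons, 23 of them a single exon, and within each of the 9 genes the table and GRCh37 differed by 1 constant offset. The sequences below are those of the exons with the clearest differences or the best known roles in these genes. Each is written 5′ to 3′ on the strand of the gene, with the exon in capitals and 20 bases of intron on each side in lower case. The exons are MARK3 of 27 bases (chr14:103964839-103964865, plus strand), MARK3 of 45 bases (chr14:103966493-103966537, plus strand), CTNND1 of 87 bases (chr11:57583387-57583473, plus strand), MAGI1 of 36 bases (chr3:65433697-65433732, minus strand), NUMB of 33 bases (chr14:73783098-73783130, minus strand), ENAH of 63 bases (chr1:225692693-225692755, minus strand) and PTPRF of 33 bases (chr1:44078439-44078471, plus strand).
MARK3 27-base exon: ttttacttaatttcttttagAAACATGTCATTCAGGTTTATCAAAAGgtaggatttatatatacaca
MARK3 45-base exon: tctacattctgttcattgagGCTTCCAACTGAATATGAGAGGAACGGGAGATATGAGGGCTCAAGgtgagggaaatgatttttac
CTNND1 87-base exon: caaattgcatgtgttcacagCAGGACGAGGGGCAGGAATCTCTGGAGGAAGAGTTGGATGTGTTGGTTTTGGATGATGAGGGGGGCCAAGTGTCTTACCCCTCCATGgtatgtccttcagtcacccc
MAGI1 36-base exon: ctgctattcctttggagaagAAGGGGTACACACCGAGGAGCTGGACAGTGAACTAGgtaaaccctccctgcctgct
NUMB 33-base exon: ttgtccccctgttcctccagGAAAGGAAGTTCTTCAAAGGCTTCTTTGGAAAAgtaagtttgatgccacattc
ENAH 63-base exon: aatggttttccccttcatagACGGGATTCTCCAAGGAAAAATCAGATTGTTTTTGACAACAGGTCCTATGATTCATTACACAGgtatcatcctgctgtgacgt
PTPRF 33-base exon: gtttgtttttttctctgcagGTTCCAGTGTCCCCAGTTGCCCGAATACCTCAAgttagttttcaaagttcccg

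Each of these exons was a multiple of 3 bases long, so that its inclusion leaves the reading frame intact, and each was bounded by AG before and GT after the exon. Pyrimidines made up 80% of the 20 intron bases before the NUMB exon, 75% before the MARK3 27-base and PTPRF exons, 65% before the MARK3 45-base and ENAH exons, 55% before the MAGI1 exon and 50% before the CTNND1 exon. In the annotation the CTNND1 exon was wholly coding in 11 of 11 transcripts that join it to the outer exons of its event, the NUMB exon in 10 of 10, the MAGI1 exon in 9 of 10, the MARK3 27-base exon in 8 of 12, the PTPRF exon in 3 of 3 and the ENAH exon in 2 of 3.

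The 5.63% of rows in the whole table whose printed group averages did not belong to the rates beside them bear on every result here. Of the 52 events, 41 had rates that averaged to the averages of their own row, 6 were re-matched to rates by both averages, and 5 by the RBM47 average alone. The read totals of a row, which were not used for the matching, gave a ΔI of the same sign in 35 of the 41, 6 of the 6 and 5 of the 5 events. Over the table, reads came to 26498401 in control and 24116982 in RBM47 samples, a ratio of 0.910, and the ratio over the 52 events was 0.867. Reads were deposited as sums over the 3 samples of a group, so that the depth of each sample is unknown. Among 6000 events with a mean IR of 0.1 to 0.9, rates of exactly 0 or 1 made up 14.8% in RBM47 replicate 2 and 6.1% to 7.63% elsewhere.

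MARK3 and CTNND1 held the events that changed by both tests used, the former with exon skipping and the latter with inclusion in RBM47 cells. Of the 52 events, 4 (7.69%) met the study criteria with a lower IR, in MARK3 and MAGI1, and 1 (1.92%) with a higher IR, in CTNND1. The study criteria were an unadjusted Fisher p of at most 0.05 on the summed reads, a ΔI of at least 0.2 in either direction and at least 10 reads. Over the whole table the shares that met them were 0.793% with a lower and 0.615% with a higher IR. A test across replicates (limma, adjusted over all 6000 events with a mean IR of 0.1 to 0.9) called 2 MARK3 events lower and the CTNND1 event higher among the 23 member events it covered. These were 8.7% lower and 4.35% higher, against 0.783% and 0.75% over all events tested. Within MARK3, and within MAGI1, the lower events share both outer ends and their skipping reads, so that they are not independent. CTNND1 event 8, with a control mean under 0.1, entered that range through its RBM47 samples alone, and SCRIB event 1 through its control samples alone, so that these shares describe the 23 events and are not a test of the genes. With all mean rates tested the limma adjusted p of CTNND1 event 8 was 0.0261.

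The other member events had smaller differences. The median ΔI of the 52 events was 0, as it was over all events, and the median size of ΔI in either direction was 0.0362 against 0.0114 over all events. The size of ΔI was at least 0.1 in 14 of the 52 events and under 0.05 in 28, against 2176 and 19830 of 24708 events over the table. The mean IR was under 0.1 in 10 events and over 0.9 in 19, where little room is left for a change in 1 direction. Over the table these were 4942 and 13766 of 24708 events. The shares and sizes of the members and of all events thus come from unlike spreads of mean IR. The member events held a median of 1023 reads over both groups against 665 over all events, and the fewest and most reads were 131 and 9616.

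By the Fisher p of at most 0.05 alone, 19 of the 52 events (36.5%) in all 9 genes passed, against 14.4% of all events. This test adds up the reads of the 3 samples, so that their spread plays no part in it. Without overlap between the 3 control and 3 RBM47 rates were 12 of the 23 events with a mean IR of 0.1 to 0.9 (52.2%), against 17.9% over all events in that range. These 12 events lay in CTNND1, FGFR1, MAGI1, MARK3, NUMB and SCRIB, with the RBM47 samples lower in 9 and higher in 3. They are not independent, because 21 of the 52 events fall in 10 sets that share both outer ends and thus their skipping reads. An exact permutation test of 3 against 3 samples cannot give a two-sided p below 0.1.

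**Figure D1:**
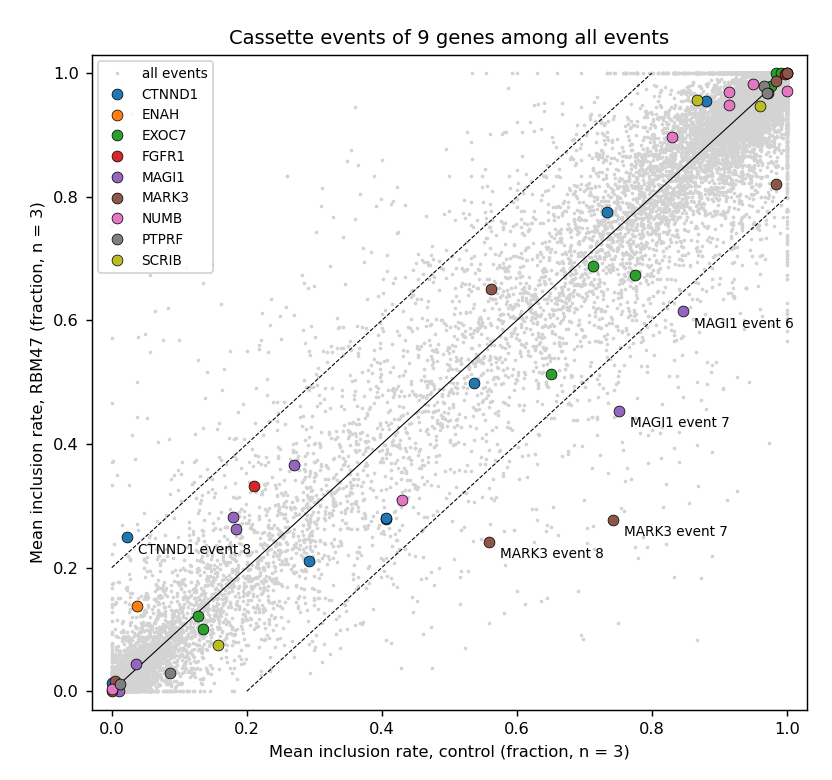
Mean inclusion rate (fraction, n = 3) in control samples on the x axis against that in RBM47 samples on the y axis, with every event of the table as a grey point and the 52 events of 9 genes as coloured points. The solid line marks equal rates and the dashed lines a difference of 0.2, past which lie the 5 labelled events of MARK3, MAGI1 and CTNND1.

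MARK3 is a Ser/Thr kinase of the Par-1 family, which acts in cell polarity and on microtubules. Its exons of 27 and 45 bases lie next to each other, and RBM47 cells skipped them together much more often than control cells. Events 7 and 8 share both outer ends (chromosome 14, 103027866 to 103039370 in the coordinates of the table) and their skipping reads. An annotated transcript joins the 27-base and 45-base exons, in that order, between these outer exons. The annotation alone does not assign them to the rows. Including reads were taken as those of the junctions on both sides of an exon. On that reading, event 7 is the 27-base exon and event 8 the 45-base exon. Only then do the read totals of events 6 to 9 add up in both groups. The reads that joined the outer exons directly came to 158 in control and 580 in RBM47 samples, a ratio of 3.67.

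For MARK3 event 7 the IR was 0.748, 0.760 and 0.719 in control samples and 0.299, 0.304 and 0.228 in RBM47 samples. All RBM47 samples lay far below all control samples. The mean fell from 0.742 ± 0.0208 to 0.277 ± 0.0426, a ΔI of -0.465, with a limma adjusted p of 0.000252 and a Fisher's exact p of 8.28e-96. Including reads came to 952 in control and 455 in RBM47 samples. For MARK3 event 8 the control samples gave 0.547, 0.600 and 0.530 and the RBM47 samples 0.243, 0.238 and 0.245. Here too the groups did not overlap, and the RBM47 samples lay close together. The mean fell from 0.559 ± 0.0365 to 0.242 ± 0.00368, a ΔI of -0.317 (limma adjusted p = 0.00145, Fisher's exact p = 2.67e-40). Including reads were 498 and 446, so that most of this difference lay in the skipping reads.

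Each of the short MARK3 exons was also measured beside the other. Event 9, the 45-base exon between the 27-base exon and the downstream exon, did not pass the replicate test and lay in the other direction. Its IR was 0.541, 0.544 and 0.600 in control and 0.652, 0.603 and 0.696 in RBM47 samples, with means of 0.562 ± 0.0332 and 0.650 ± 0.0464 (limma adjusted p = 0.374, Fisher's exact p = 0.000496). The groups did not overlap, and including reads were 856 and 585 and skipping reads 300 and 137. Event 6, whose span fits the 27-base exon between the upstream exon and the 45-base exon, was singled out after its values were seen, since its mean IR was over 0.9. It gave 0.993, 0.989 and 0.970 in control and 0.810, 0.878 and 0.776 in RBM47 samples, means of 0.984 ± 0.0123 and 0.821 ± 0.0521 (Fisher's exact p = 5.87e-18, not covered by limma). An annotated exon of 75 bases fits the same span. The RBM47 samples were all below the control samples, with including reads of 1018 and 512 and skipping reads of 8 and 55.

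The other 5 MARK3 events had ΔI between -0.00379 and 0.0108. Event 5, which runs to the same downstream exon as events 7 to 9, had an IR of 0.972 ± 0.00872 and 0.968 ± 0.0123, with 1249 reads in control and 1869 in RBM47 samples. This was a ratio of 1.50, with no test, while most member events had fewer reads in RBM47 samples.

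**Figure D2:**
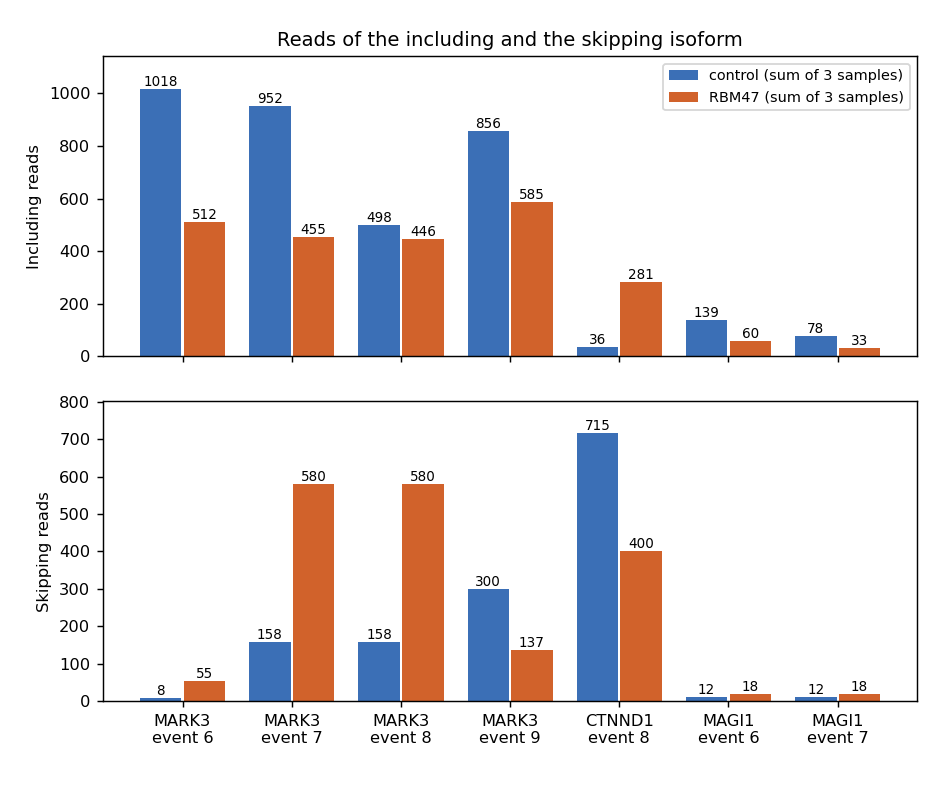
Including reads (upper panel) and skipping reads (lower panel), each summed over the 3 samples of a group, for the 4 events around the short MARK3 exons and the other 3 events past the study criteria. Blue bars are control and orange bars RBM47, and the skipping reads of MARK3 events 7 and 8 were 158 and 580 and the including reads of CTNND1 event 8 were 36 and 281.

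CTNND1 encodes p120-catenin, which binds and stabilises cadherins at the cell surface. Its transcripts are known to vary both at their 5′ part, where exon choice sets the start codon and so separates the long mesenchymal from the short epithelial protein, and at short exons near the 3′ end. The exon that changed was a 3′ one, the 87-base exon of event 8 (chromosome 11, 57339441 to 57343225 in the table), which control cells nearly always skipped.

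The IR of CTNND1 event 8 was 0.0191, 0.0141 and 0.0340 in control samples and 0.289, 0.232 and 0.226 in RBM47 samples. The lowest RBM47 sample was thus several times above the highest control sample. The mean rose from 0.0224 ± 0.0104 to 0.249 ± 0.0348, a ΔI of 0.227 (limma adjusted p = 0.00145, Fisher's exact p = 2.70e-67). Including reads came to 36 in control and 281 in RBM47 samples, and skipping reads to 715 and 400. The 18-base exon of event 7, further upstream, stayed nearly always skipped, with a mean IR of 0 in control and 0.0136 in RBM47 samples.

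At the 5′ part of CTNND1 no event passed either call, and directions differed. Events 2 and 3 share outer ends and 129 and 105 skipping reads, and fit exons of 119, 180 or 289 bases, which lie wholly in coding sequence in 0 of the transcripts listed for them. Event 2 gave 0.414, 0.410 and 0.396 in control and 0.317, 0.228 and 0.292 in RBM47 samples, means of 0.407 ± 0.00979 and 0.279 ± 0.0461 (limma adjusted p = 0.293, Fisher's exact p = 0.00815). Event 3 gave 0.311, 0.258 and 0.306 against 0.232, 0.170 and 0.231, means of 0.292 ± 0.0291 and 0.211 ± 0.0356 (limma adjusted p = 0.542). In both the RBM47 samples lay below the control samples without overlap.

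Events 4 and 5 of CTNND1 also share their outer ends, and they lay in opposite directions. Event 4 gave 0.721, 0.705 and 0.775 in control and 0.772, 0.766 and 0.789 in RBM47 samples, with overlap and means of 0.733 ± 0.0367 and 0.776 ± 0.0117. Event 5 gave 0.375, 0.432 and 0.414 against 0.358, 0.182 and 0.302, with no overlap and means of 0.407 ± 0.0289 and 0.281 ± 0.0903, but its summed reads gave a ΔI of -0.0449 (Fisher's exact p = 0.419), and its ΔI without RBM47 replicate 2 was -0.0764. Neither passed limma (adjusted p = 0.721 and 0.498). Event 1, a 119-base exon, gave 0.528, 0.462 and 0.621 against 0.391, 0.556 and 0.551, and its means of 0.537 ± 0.0798 and 0.499 ± 0.0935 differed by less than the SD of either group. Event 6, a 72-base exon with a mean IR over 0.9, had means of 0.881 ± 0.0201 and 0.956 ± 0.0464 (Fisher's exact p = 0.0593). Its RBM47 samples lay above the control samples without overlap, the nearest values being 0.907 and 0.903.

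MAGI1, a scaffold protein of tight and adherens junctions with WW and PDZ domains, had 2 events past the study criteria that did not pass the replicate test. Both share the outer ends of 1 span (chromosome 3, 65403506 to 65414054 in the table), both fit the annotated 36-base exon, and both rest on the same 12 skipping reads in control and 18 in RBM47 samples. Event 6 gave 0.869, 0.800 and 0.870 in control and 0.657, 0.565 and 0.622 in RBM47 samples, means of 0.846 ± 0.0400 and 0.615 ± 0.0464 (ΔI -0.231, Fisher's exact p = 0.00191, limma adjusted p = 0.254). Event 7 gave 0.771, 0.697 and 0.786 against 0.586, 0.412 and 0.364, means of 0.751 ± 0.0477 and 0.454 ± 0.117 (ΔI -0.298, Fisher's exact p = 0.00471, limma adjusted p = 0.363). In both events every RBM47 sample lay below every control sample. After Benjamini-Hochberg adjustment over the table the Fisher's exact p was 0.0388 for event 6 and 0.0756 for event 7. Including reads in control and RBM47 samples were 139 and 60 for event 6 and 78 and 33 for event 7.

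Events 2, 3 and 4 of MAGI1 fit a single exon with alternative lengths of 201 and 204 bases, and share 68 and 36 skipping reads. Event 2 gave 0.244, 0.229 and 0.0769 in control and 0.244, 0.333 and 0.212 in RBM47 samples, event 3 gave 0.244, 0.217 and 0.0769 against 0.244, 0.368 and 0.235, and event 4 gave 0.346, 0.289 and 0.172 against 0.333, 0.400 and 0.366. The groups overlapped in each, control replicate 3 being the lowest sample. The means were 0.183 ± 0.0925 and 0.263 ± 0.0628, 0.180 ± 0.0899 and 0.283 ± 0.0744, and 0.269 ± 0.0886 and 0.366 ± 0.0333, with limma adjusted p from 0.703 to 0.770. The remaining 2 MAGI1 events were nearly always skipped, with ΔI of -0.0108 and 0.00822.

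**Figure D3:**
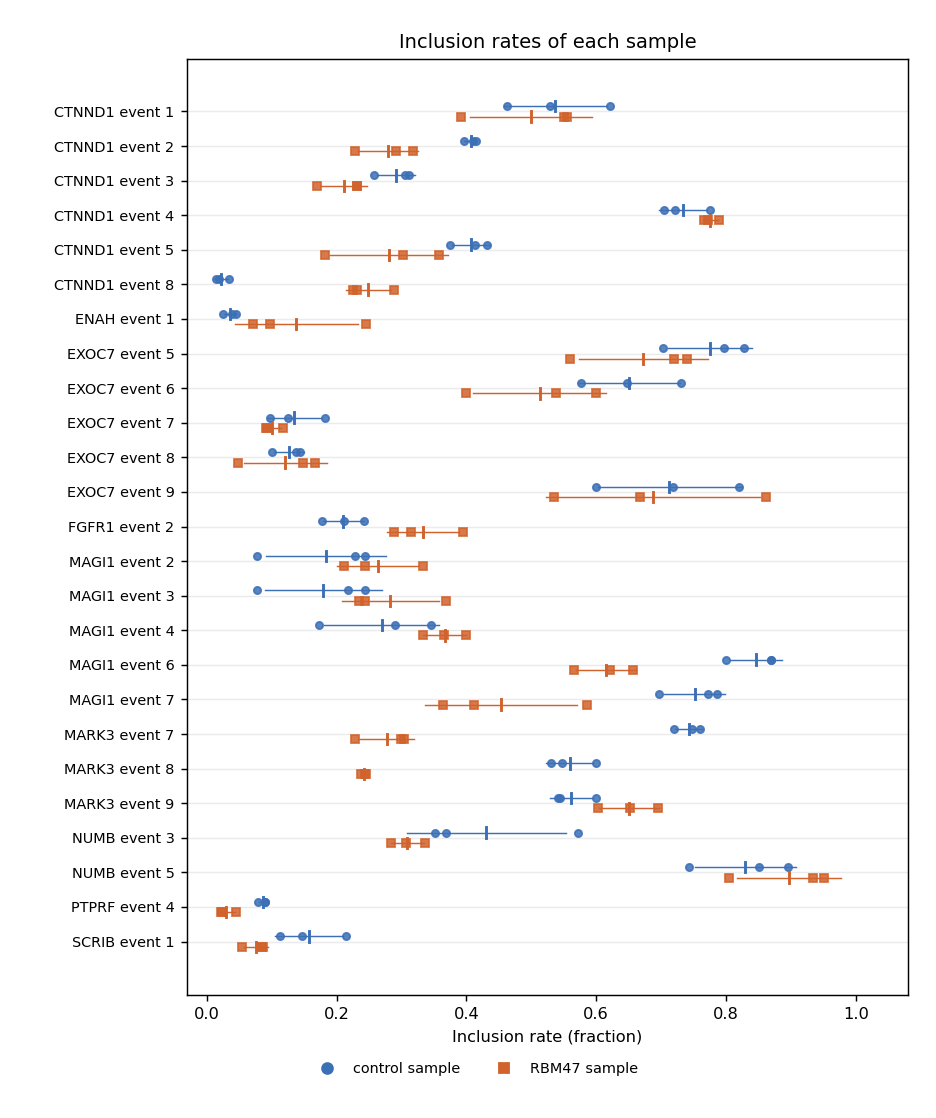
Inclusion rate (fraction, x axis) of each sample for 25 events, those past either call, with a mean rate of 0.1 to 0.9, or chosen for ENAH and PTPRF, with control samples as blue circles and RBM47 samples as orange squares. Vertical ticks are group means and horizontal lines ± 1 SD (n = 3), and the groups stand far apart for MARK3 events 7 and 8 and CTNND1 event 8.

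ENAH (Mena) promotes actin filament elongation at the leading edge and at junctions, and its 63-base exon is known as an epithelial exon that mesenchymal cells skip. The IR was low in all samples and higher in RBM47 cells, with values of 0.0252, 0.0458 and 0.0390 in control and 0.0968, 0.0714 and 0.246 in RBM47 samples. The groups did not overlap, and RBM47 replicate 3 stood above the other two. The means were 0.0366 ± 0.0105 and 0.138 ± 0.0943, a ΔI of 0.101, below the 0.2 of the study criteria (Fisher's exact p = 4.72e-05, and 0.00192 after Benjamini-Hochberg adjustment). Without RBM47 replicate 3 the ΔI was 0.0475. The overall mean lay under 0.1, so that limma did not cover it. The event was shallow, with including reads of 14 and 20 and skipping reads of 168 and 50 in the control and RBM47 samples. Its total of 70 reads was 0.385 times that in control.

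NUMB is an endocytic adaptor that antagonises Notch, and its 33-base exon inserts residues into the phosphotyrosine-binding domain. Event 3 gave 0.368, 0.571 and 0.352 in control and 0.336, 0.284 and 0.307 in RBM47 samples. The groups did not overlap, but control replicate 2 stood far above the other two, which lay close to the RBM47 samples. The means were 0.431 ± 0.122 and 0.309 ± 0.0258, a ΔI of -0.121 that was about the SD of the control samples (limma adjusted p = 0.460, Fisher's exact p = 1.07e-06). Without control replicate 2 the ΔI was -0.0511. Event 5, which fits exons of 33 and 75 bases, gave 0.895, 0.743 and 0.851 against 0.934, 0.951 and 0.805, with overlap and means of 0.830 ± 0.0780 and 0.897 ± 0.0802 (limma adjusted p = 0.657). The other 5 NUMB events had ΔI between -0.0282 and 0.0559.

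PTPRF encodes LAR, a receptor tyrosine phosphatase at adhesions. Its 33-base exon in event 4 was mostly skipped, with an IR of 0.0902, 0.0797 and 0.0898 in control and 0.0455, 0.0224 and 0.0230 in RBM47 samples. Every RBM47 sample lay below every control sample, and the spread within each group was small. The means were 0.0866 ± 0.00595 and 0.0303 ± 0.0132, with including reads of 242 and 87 and skipping reads of 927 and 815 (Fisher's exact p = 4.82e-12). Its ΔI of -0.0562 was under the 0.2 of the study criteria, and a mean IR under 0.1 kept it out of the limma test. The other 3 PTPRF events, of exons of 27, 306 and 579 bases, had ΔI between -0.00384 and 0.0133.

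EXOC7 (Exo70) is a subunit of the exocyst, which tethers secretory vesicles to the plasma membrane, and its splice forms are known to differ in their action on actin. None of its 10 events passed either call, and the groups overlapped in all of them. Events 5 and 6, which share outer ends and fit exons of 69 or 153 bases, had the widest differences. Event 5 gave 0.827, 0.702 and 0.797 in control and 0.720, 0.739 and 0.559 in RBM47 samples, means of 0.775 ± 0.0652 and 0.673 ± 0.0990 (limma adjusted p = 0.657, Fisher's exact p = 0.0317). Event 6 gave 0.731, 0.576 and 0.647 against 0.600, 0.538 and 0.400, means of 0.651 ± 0.0776 and 0.513 ± 0.102 (limma adjusted p = 0.643, Fisher's exact p = 0.0279). The difference was close to the SD of the RBM47 samples for event 5 and somewhat above it for event 6. Each rests on 20 skipping reads in control and 25 in RBM47 samples.

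The other EXOC7 exons varied less between the groups. Event 7 gave 0.126, 0.182 and 0.0976 in control and 0.0937, 0.0909 and 0.117 in RBM47 samples, with means of 0.135 ± 0.0429 and 0.101 ± 0.0143. Event 8, with the same outer ends and the same 371 and 312 skipping reads, gave 0.101, 0.137 and 0.144 against 0.0476, 0.167 and 0.149, with means of 0.127 ± 0.0231 and 0.121 ± 0.0643. In both the difference was smaller than the SD of 1 of the groups. Event 9, a 93-base exon, gave 0.718, 0.600 and 0.821 against 0.535, 0.862 and 0.667, with means of 0.713 ± 0.110 and 0.688 ± 0.165. The limma adjusted p of these 3 events lay between 0.717 and 0.970. The remaining 5 events had ΔI between -0.00160 and 0.0164.

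FGFR1 encodes a receptor for fibroblast growth factors. The exon of its event 2, 267 bases long (GRCh37 chromosome 8, 38287200 to 38287466), encodes the outermost immunoglobulin-like loop of the receptor, whose skipping gives the shorter beta form. The IR was 0.242, 0.211 and 0.178 in control and 0.395, 0.289 and 0.314 in RBM47 samples. Every RBM47 sample lay above every control sample. The means were 0.211 ± 0.0319 and 0.333 ± 0.0557, a ΔI of 0.122 that passed neither call (limma adjusted p = 0.206, Fisher's exact p = 7.91e-09). Including reads came to 340 and 336 and skipping reads to 420 and 216, ratios of 0.988 and 0.514. The other 2 FGFR1 events were nearly always included, with ΔI of 0 and 0.000707, and their reads in RBM47 samples were 0.528 and 0.518 times those in control.

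SCRIB encodes Scribble, a polarity scaffold of the basolateral membrane. The 75-base exon of event 1 (GRCh37 chromosome 8, 144873836 to 144873910) gave an IR of 0.146, 0.214 and 0.112 in control and 0.0857, 0.0863 and 0.0540 in RBM47 samples. The RBM47 samples lay below the control samples without overlap. The means were 0.158 ± 0.0519 and 0.0753 ± 0.0185 (ΔI -0.0823, limma adjusted p = 0.283, Fisher's exact p = 0.000688). Event 3 was singled out after its values were seen, since its mean IR was over 0.9. It gave 0.857, 0.865 and 0.880 against 0.972, 0.938 and 0.960, with no overlap and means of 0.867 ± 0.0116 and 0.957 ± 0.0172 (Fisher's exact p = 9.04e-12). Event 2 had a ΔI of -0.0148.

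All 5 events past the study criteria were among the rows re-matched by the RBM47 average alone, as were all 253 rows of the table re-matched in that way, each of which met the criteria. With the rates that stood in the row as deposited, ΔI was -0.261 for MARK3 event 7, -0.572 for MARK3 event 8, -0.0238 for CTNND1 event 8, 0.227 for MAGI1 event 7 and -0.0897 for MAGI1 event 6. The read totals printed in the same rows need no matching. From these totals the IR was 0.751 in control and 0.282 in RBM47 samples for MARK3 event 7, 0.612 and 0.278 for MARK3 event 8, 0.0246 and 0.260 for CTNND1 event 8, 0.853 and 0.625 for MAGI1 event 6, and 0.765 and 0.478 for MAGI1 event 7. The counts of 1 higher and 4 lower events, and of 1 and 2 by limma, were the same without any 1 of the 6 samples, RBM47 replicate 2 included.

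The direction of the short exons was set beside read totals of epithelial and mesenchymal markers in the same table, each for the most-read event of the gene. Only genes with a cassette event appear there, which was 3 of 11 epithelial and 5 of 10 mesenchymal markers. CDH1, EPCAM and ESRP1 were among the 8 epithelial markers without an event, so that their levels were not measured here. Summed reads of the epithelial markers were 4586 in control and 7525 in RBM47 samples, a ratio of 1.64 that came from the keratin KRT8 (3199 and 6358), while CLDN7 (1349 and 1138) and ESRP2 (38 and 29) did not share it. Summed reads of the mesenchymal markers were 175853 and 124927, a ratio of 0.710 against 0.910 over the whole table. Nearly all of these reads were those of VIM, which thus set the ratio. VIM had 171444 and 122643 reads, FN1 2953 and 1029, ZEB1 267 and 68, SPARC 839 and 854, and COL6A2 350 and 333. These are group sums with no test, and the part of these genes in the splicing differences was not tested.

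Other genes known for exons of this kind were taken from a list of 23, of which 21 had 90 events. Like the 10 genes, they included exons that changed in both directions. By the study criteria 6 events (6.67%) in 6 genes had a higher and 6 (6.67%) in 5 genes a lower IR. Over the whole table these shares were 0.615% and 0.793%. The replicate test called 4 of 41 events (9.76%) higher and 6 (14.6%) lower, against 0.75% and 0.783% over all events tested. The Fisher p alone passed in 28 of the 90 events (31.1%), against 14.4% of all events. Groups did not overlap in 20 of the 41 events (48.8%), against 17.9% over all events in that range. The median size of ΔI was 0.0121, against 0.0114 over all events. All 12 events past the study criteria lay in rows re-matched by the RBM47 average alone.

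Among the higher events by both tests, the exon of TJP1, the tight junction protein ZO-1, rose from 0.348 ± 0.0466 to 0.858 ± 0.0865 (limma adjusted p = 0.00420). CD44, the hyaluronan receptor, rose from 0.342 ± 0.0522 to 0.734 ± 0.0839 (limma adjusted p = 0.00788), the kinesin gene KIF13A from 0.141 ± 0.0355 to 0.517 ± 0.0979 (limma adjusted p = 0.0125) and the kinase gene MAP3K7 from 0.0668 ± 0.0389 to 0.275 ± 0.00859 (limma adjusted p = 0.0477). In each the RBM47 samples lay above all control samples. The control mean of MAP3K7 was under 0.1, and its event entered the range of the replicate test through the RBM47 samples alone. With all mean rates tested, or without the variance trend, limma called 0 of the events of the other listed genes higher, these 4 included. INSR and RALGPS2 met the study criteria with a higher IR but not the replicate test (limma adjusted p = 0.351 and 0.0960). INSR rested on 50 reads in control and 23 in RBM47 samples, and its RBM47 samples ranged from 0.250 to 1.

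Among the lower events by both tests, ITGA6, the integrin alpha 6 subunit, fell from 0.581 ± 0.0173 to 0.260 ± 0.0229 (limma adjusted p = 0.000290). LRRFIP2 fell from 0.812 ± 0.00665 to 0.419 ± 0.0748 (limma adjusted p = 0.00129), GIT2, a GTPase-activating protein for ARF, from 0.840 ± 0.0364 to 0.371 ± 0.0679 (limma adjusted p = 0.00238), and SPAG9, a JNK scaffold, from 0.301 ± 0.0355 to 0.0713 ± 0.0103 (limma adjusted p = 0.00436). For NFYA, a subunit of the CCAAT-binding factor, the 2 events fell from 0.645 ± 0.105 to 0.151 ± 0.0334 and from 0.637 ± 0.102 to 0.145 ± 0.0461 (limma adjusted p = 0.0124 and 0.0141). They share 38 skipping reads in control and 110 in RBM47 samples. In all of these the RBM47 samples lay below all control samples. The RBM47 mean of SPAG9 was under 0.1, and its event entered the range of the replicate test through the control samples alone. With all mean rates tested, limma called 3 events of the other listed genes lower.

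**Figure D4:**
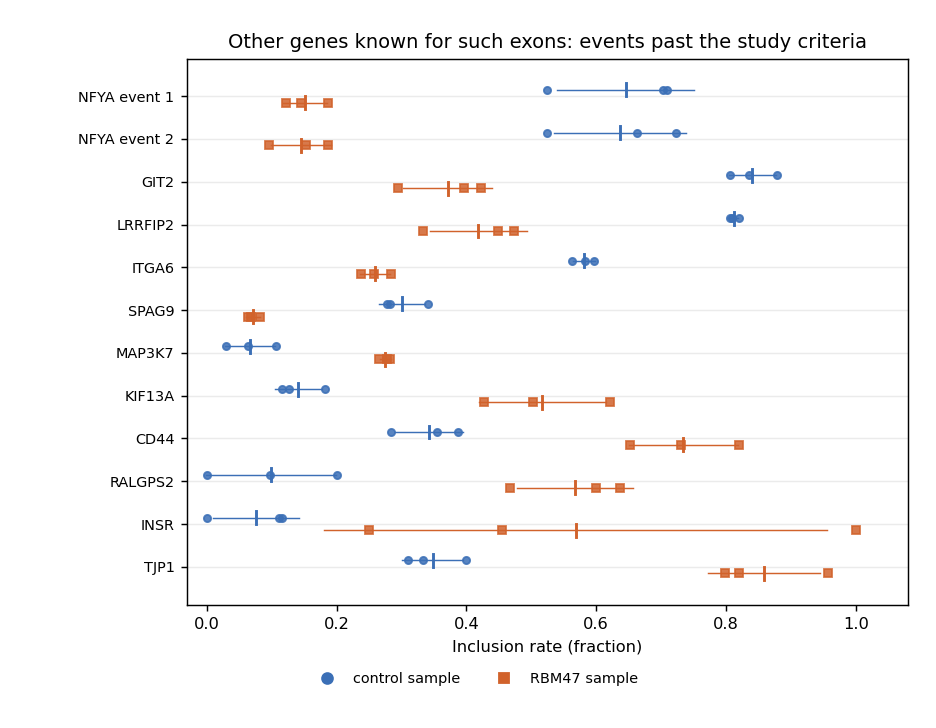
Inclusion rate (fraction, x axis) of each sample for the 12 events of the other listed genes past the study criteria, with control samples as blue circles, RBM47 samples as orange squares, vertical ticks for means and lines for ± 1 SD (n = 3). The groups do not overlap in any of the 12, and INSR shows the widest spread among RBM47 samples.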

How the data were processed

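RNA from 3 control and 3 RBM47 samples was sequenced after polyA selection. The sample titles gave the group and the replicate number. The authors deposited 1 table of cassette exon events, with a fraction per sample (its inclusion rate), the average fraction of each group, and counts of reads for the including and the skipping isoform summed over the 3 samples of a group. TopHat is named in the submitters' processing notes. For RNA-seq of the cell lines the methods of the study state mapping to hg19 by STAR, but the coordinates of the table were offset from hg19 (GRCh37) in each of the 9 genes, and the build and mapping settings of the table itself are not given in the sources used here. Deposited columns of the authors' own comparison (change in inclusion, odds ratio and p-value) were not used.

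The printed group averages were not those of the rates beside them in 1392 of 24725 rows (5.63%). Rates from another row that averaged to both averages within 3e-09 were used for 1122 rows, and from a row that averaged to the RBM47 average for 253. The other 17 had no rates, which left 24708 events. Only averages entered the matching.

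The summed counts of each event were compared by Fisher's exact test, two-sided, in scipy 1.17.1. The replicate test was limma 3.58.1 (R 4.3.3) on arcsine square root transformed rates, with the variance modelled as a trend over log2 reads, for the 6000 events with a mean rate of 0.1 to 0.9. Benjamini-Hochberg adjustment ran over all 6000. Events were called where the adjusted p was under 0.05 and the rates differed by 0.2 or more. The limma fit was tested on simulated rates, while the re-matching of rates and the Fisher calls were not tested in that way. Nothing states that the samples of a group came from separate cultures. The limma p-values thus measure the spread between these samples, which may be technical. The Fisher p-values, from summed reads, do not measure that spread. Counts per sample were not used here, so no interval is given for a single rate.

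The members, the other listed genes and the tests were chosen with earlier results of these data known. Values of each sample are given for member events past either call or with a mean rate of 0.1 to 0.9 and at least 30 reads in each group, and, for a gene with none of these, for the event nearest 0.5. Of the other listed genes, events past either call are named, and 1 item is not reported here. Same-numbered samples did not deviate together (r of -0.0198, -0.00294 and 0.0152 across events), so the numbers were not taken as pairs. Sequences were read from GRCh37.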

Additional observations from a re-analysis of the deposited data

How the results depend on the processing

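For the 10 genes, leaving out any 1 sample gave 1 higher and 4 lower events by the study criteria and 1 and 2 by limma. A minimum difference of 0.1 gave 3 higher and 9 lower events by the study criteria, and one of 0.3 gave 0 and 2. With the rates in the row as deposited they were 1 and 2, the higher event then being MAGI1 event 7 in place of CTNND1 event 8. With aligned rows alone they were 0 and 0 by the study criteria and 0 and 0 by limma, since every call lies in a re-matched row. With the replicate number as a block limma gave 1 higher and 2 lower events, and the other listed genes gave 3 and 4, and the numbers do not pair the samples. The median ΔI ranged from 0 to 0.00187.

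Alternatives for the other listed genes that were added after seeing the data gave 0 higher and 0 lower events with aligned rows alone by either test, 0 higher by limma without the variance trend, and 0 higher and 3 lower with all mean rates tested. The causes of the last 2 were not tested. A minimum difference of 0.1 gave 11 higher events. Without 1 sample the study criteria gave 5 to 6 higher and 6 to 7 lower events, and limma 1 to 3 higher (1 without control replicate 2, and 2 without control replicate 1, control replicate 3, RBM47 replicate 1 or RBM47 replicate 3) and 4 to 6 lower.

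Of the differences of named member events under the alternatives, 10 reversed, 1 went below the 0.2 of the call and 205 did neither. With the row as deposited ΔI was 0.0650 for CTNND1 event 2, -0.0238 for CTNND1 event 8, 0.227 for MAGI1 event 7 and -0.0897 for MAGI1 event 6. For CTNND1 event 1 it was 0.00200 from summed reads. Without 1 sample it ranged from -0.0753 to 0.0162 (limma adjusted p from 0.805 to 0.992) for CTNND1 event 1, from -0.0288 to 0.0307 (0.746 to 0.988) for EXOC7 event 8 and from -0.112 to 0.0516 (0.678 to 0.994) for EXOC7 event 9, with the positive values without control replicate 3 and without RBM47 replicate 1. The cause was not tested. Reads per sample were not used here, and the 70 RBM47 reads of ENAH and 78 of MAGI1 event 6 limit what can be said of those exons.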
